A study of Mus musculus with 4 samples.

Results

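The 7 genes described here encode subunits of the GABA-A receptor: Gabra2, Gabra3, Gabra4, Gabra5, Gabrb1, Gabrg3 and Gabrd. They were taken by symbol from the 27998 genes of the deposited tables, and all 7 were found. GABA-A receptors are chloride channels that open when the inhibitory transmitter GABA binds, and each channel is built from alpha, beta and either gamma or delta subunits. The alpha subunit sets the affinity for GABA and much of the drug response. Receptors with a gamma subunit gather mostly at synapses, whereas receptors with the delta subunit lie mostly outside them and carry the tonic inhibition for which dentate granule cells are known.

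Single-nucleus 3′ RNA profiles were made from hippocampus of B6 mice aged 9 months, with all hippocampi of a genotype pooled into 1 library. The WT library held 7 hippocampi and carried neither change. The EKO library (7 hippocampi) lacked Apoe, the gene of the lipid carrier apolipoprotein E. The P301S library (8 hippocampi) carried a tau transgene with the P301S change, and the P301S/EKO library (7 hippocampi) combined the transgene with loss of Apoe. Neither the promoter of the transgene nor the sex of the mice is given in the sources used here, and the series' other 2 genotypes were not analysed here. Values for 4 libraries are always given in the order WT, EKO, P301S, P301S/EKO.

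In that order the libraries had 6145, 5982, 3156 and 6767 barcodes, and the median barcode had 1901, 1443.5, 2152.5 and 1394 UMIs (unique transcript molecules), so that both libraries without Apoe were shallower than both with it. Libraries shared 19 to 69 barcode sequences pairwise, at most 1.15% of the smaller library. Apoe stood at 1932, 16.4, 6402 and 19.6 UMIs per 1e+06 (CPM), low in both libraries labelled as lacking it, and Mapt, the tau gene, at 161, 157, 254 and 206 CPM. Because each genotype is 1 pool, no comparison between genotypes has a replicate, and no test was made. All limits given in parentheses are 95% limits that cover counting error only, and a difference is called when it reaches 1.5-fold with at least 50 UMIs over both libraries.

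Neurons fell into 7 classes, each named "-like" from marker genes: dentate granule-like (3139 nuclei), CA1-like (2306), CA2 or CA3-like (1625), subicular-like (708), upper-layer cortical-like (2366, on 3 of 5 markers), deep-layer cortical-like (1105) and inhibitory-like nuclei (1765). The labelled hippocampal tissue therefore also held nuclei with cortical markers. GABA-A subunit genes were left out of the clustering, but since the classes come from the same nuclei, differences between classes are described and not tested. Neuronal RNA was counted in glial nuclei as well. In microglia-like nuclei, where neuronal transcripts should be nearly absent, Snap25, Syt1, Nrgn, Camk2a and Slc17a7 together stood at 2114, 2110.4, 1621 and 1712 CPM, against 1851 to 2793 CPM across the neuron classes. A member's level in microglia-like nuclei is therefore given as the background beside its levels in neurons. The microglia-like nuclei also held more of the dentate granule markers, at 342, 475, 118 and 379.5 CPM, than deep-layer cortical-like nuclei did, at 84.7, 88.0, 39.7 and 95.9 CPM.

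All 7 genes lie in short arrays or alone. On GRCm38, Gabra2 (chr5:70957597-71095849, minus strand), Gabra4 (chr5:71569749-71658308, minus) and Gabrb1 (chr5:71658113-72149037, plus) are neighbours, and the 5′ ends of Gabra4 and Gabrb1 overlap on opposite strands. Reads of this assay keep their strand. Gabrg3 (chr7:56716465-57387188, minus) and Gabra5 (chr7:57407672-57510059, minus) form a second array. Gabrd (chr4:155384980-155398112, minus) and Gabra3 (chrX:72432681-72656848, minus) lie apart. RefSeq start-site windows on GRCm38.p6, from 250 bases before to 50 bases after the start, were matched for 6 of the 7 genes, with 8 windows in all. The windows of Gabra2, Gabra4 and Gabrg3 are shown because their pooled ratios had limits below no change in both comparisons of Apoe loss described further on. They lie at chr5:71095800-71096099, chr5:71658259-71658558 and chr7:57387166-57387465, all on the minus strand. Capitals mark each GC box, the letters GGGCGG or their reverse complement CCGCCC.

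Gabra2: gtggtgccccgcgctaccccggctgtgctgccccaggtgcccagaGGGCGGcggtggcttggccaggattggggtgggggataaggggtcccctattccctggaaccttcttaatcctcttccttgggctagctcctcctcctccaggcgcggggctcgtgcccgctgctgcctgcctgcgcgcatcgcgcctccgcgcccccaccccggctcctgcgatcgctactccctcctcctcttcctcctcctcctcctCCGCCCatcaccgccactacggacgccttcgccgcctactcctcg

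Gabra4: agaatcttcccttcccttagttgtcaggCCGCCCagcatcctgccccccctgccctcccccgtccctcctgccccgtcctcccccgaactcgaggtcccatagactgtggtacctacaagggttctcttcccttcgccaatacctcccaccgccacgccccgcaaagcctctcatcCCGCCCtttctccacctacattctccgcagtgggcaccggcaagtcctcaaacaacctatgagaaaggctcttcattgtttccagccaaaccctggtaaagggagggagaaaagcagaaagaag

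Gabrg3: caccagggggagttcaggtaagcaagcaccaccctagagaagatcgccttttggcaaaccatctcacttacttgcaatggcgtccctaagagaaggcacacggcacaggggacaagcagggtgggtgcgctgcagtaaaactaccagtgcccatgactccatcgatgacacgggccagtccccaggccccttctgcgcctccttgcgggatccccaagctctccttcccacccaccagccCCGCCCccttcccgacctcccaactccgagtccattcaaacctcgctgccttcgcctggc

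The Gabra2 window held 2 GC boxes, that of Gabra4 held 2 and that of Gabrg3 held 1. None was found in the windows of Gabra3, Gabra5 and Gabrb1, of which Gabra3 and Gabrb1 also had pooled ratios below 0 in both comparisons, so the motif is not set against the response to Apoe loss. Of 32817 windows of this length in the table, 35.6% held one, so a match is common. The Gabra2 window was 70.0% G or C with 25 CpG pairs, against medians of 52.7% and 7 over all windows, while both Gabra3 windows held no CpG. The TATA box, searched as TATAAA on both strands, occurred only in the Gabra3 windows (13.6% of all windows), and the cAMP response element TGACGTCA occurred in none of the 8 (1.79% of all). These matches describe letters and say nothing of factor binding.

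Gabra4 and Gabrd, the alpha and delta subunits that pair in the tonic receptors of granule cells, both had their highest mean over libraries, among the 7 neuron classes, in dentate granule-like nuclei. Gabra4 stood at 94.6, 88.7, 83.0 and 76.1 CPM there, and every library lay above every library of the next class, upper-layer cortical-like nuclei (47.9 to 70.7 CPM). Between these classes 23.5% of all genes did not overlap, in either direction. The remaining 6 classes followed with overlap between neighbours, down to a mean of 31.9 CPM in subicular-like nuclei. In microglia-like nuclei Gabra4 was at 69.0, 69.2, 40.6 and 27.0 CPM, so of the neuron classes only dentate granule-like nuclei lay wholly above the background.

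Gabrd stood at 70.2, 71.4, 76.1 and 58.8 CPM in dentate granule-like nuclei, 65.6, 53.4, 43.9 and 72.6 in inhibitory-like nuclei and 57.5, 33.1, 55.9 and 52.0 in upper-layer cortical-like nuclei. Inhibitory-like nuclei overlapped with both other classes, whereas every dentate granule-like library lay above every upper-layer library. The next mean, in subicular-like nuclei (13.4 to 32.6 CPM), was 2.10-fold below upper-layer cortical-like nuclei and did not overlap with them, as for 13.0% of all genes. Deep-layer cortical-like nuclei (13.7 to 35.2 CPM) had a similar mean but overlapped with the upper-layer nuclei in 1 library, and CA1-like nuclei stood at 15.6 to 24.7 CPM. CA2 or CA3-like nuclei were lowest at 8.34, 2.24, 5.25 and 4.56 CPM, 13.6-fold below the dentate mean and below every other class in every library. With 56.4, 47.2, 34.0 and 24.4 CPM in microglia-like nuclei, Gabrd in dentate granule-like nuclei was above the background in all libraries, and in CA2 or CA3-like nuclei it was below it in all libraries.

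Gabra5, an alpha subunit best known from extrasynaptic receptors of hippocampal pyramidal cells, was highest in CA1-like nuclei at 99.1, 91.8, 91.0 and 109.9 CPM. Deep-layer cortical-like nuclei followed at 86.8, 106, 59.5 and 71.2 CPM and overlapped with them. Dentate granule-like nuclei held 78.0, 76.2, 76.1 and 83.1 CPM, the narrowest spread of the 7 classes, and CA2 or CA3-like nuclei 67.9, 84.4, 56.5 and 71.4. These 4 classes all lay above the microglia-like nuclei (23.6 to 52.5 CPM). Inhibitory-like nuclei were lowest, at 26.5, 22.9, 13.3 and 18.1 CPM, 4.85-fold below the CA1 mean.

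Gabra2, an alpha subunit found at synapses and at the axon initial segment, had its highest mean among the 7 classes in dentate granule-like nuclei, at 373, 279.6, 339 and 284 CPM. CA1-like nuclei held 269.6, 239, 323 and 215 CPM and CA2 or CA3-like nuclei 236, 182, 314 and 199.8 CPM. The order dentate, CA1, CA2 or CA3 was kept in each of the 4 libraries, although the ranges over libraries overlapped. Upper-layer cortical-like (204 CPM), subicular-like (185) and inhibitory-like nuclei (124) followed, and deep-layer cortical-like nuclei were lowest at 124, 55.7, 115 and 49.3 CPM. Only dentate granule-like and CA1-like nuclei lay above the microglia-like nuclei (153 to 212 CPM) in all libraries, and deep-layer cortical-like nuclei lay below them in all. A cluster of 1031 nuclei led by Dcn and Nnat, which took no class name, held 386, 302, 421 and 315 CPM. Gabra2, Gabra3 and Gabrb1 all lay above the microglia-like nuclei there (3 of 7 members, 17.6% of all genes apart).

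Gabrb1, the beta subunit of the set, varied least between classes, 2.30-fold from the highest mean to the lowest. Dentate granule-like nuclei held 146, 162, 235 and 153 CPM and deep-layer cortical-like nuclei 186, 182, 155 and 145 CPM, and these overlapped. Inhibitory-like nuclei, at 70.5, 78.9, 83.7 and 69.8 CPM, lay below every other neuron class in every library and below the microglia-like nuclei (111 to 147 CPM).

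Gabrg3 and Gabra3, a gamma and an alpha subunit, were highest among the 7 classes in inhibitory-like nuclei and low in dentate granule-like nuclei. Gabrg3 was highest in inhibitory-like nuclei at 81.3, 67.4, 95.9 and 74.0 CPM, above every library of the next class, subicular-like nuclei (61.1, 59.4, 65.1 and 40.5 CPM), as 23.2% of all genes were apart between these classes. It was lowest in dentate granule-like nuclei at 15.6, 11.9, 13.8 and 3.46 CPM, 7.11-fold below the inhibitory mean. Inhibitory-like and subicular-like nuclei alone lay above the microglia-like nuclei (12.6 to 36.9 CPM). Gabra3 was sparse, with 295 UMIs over all 7 neuron classes. It was highest in inhibitory-like nuclei at 27.4, 26.7, 30.6 and 26.5 CPM, again without overlap with the next class, deep-layer cortical-like nuclei (13.9 to 22.7 CPM), between which 21.1% of all genes were apart. Its means in dentate granule-like and CA2 or CA3-like nuclei were 4.33 and 4.24 CPM.

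The neuron classes can be set against all genes by asking how often the ranges over the 4 libraries failed to overlap. Dentate granule-like against CA1-like nuclei, 4 of 7 members did not overlap (Gabra4 and Gabrd higher, Gabra5 and Gabrg3 lower), and 20.8% of all genes did the same. For inhibitory-like against dentate granule-like nuclei the count was 6 of 7 (Gabra3 and Gabrg3 higher, Gabra2, Gabra4, Gabra5 and Gabrb1 lower) against 31.3% of all genes. For inhibitory-like against CA1-like nuclei it was 6 of 7 (Gabra3, Gabrg3 and Gabrd higher, Gabra2, Gabra5 and Gabrb1 lower) against 30.9%. For CA1-like against CA2 or CA3-like nuclei it was 2 of 7 (Gabra5 and Gabrd higher) against 19.1%. Dentate granule-like nuclei differed from CA2 or CA3-like nuclei in 2 of the 6 members with enough UMIs (Gabra4 and Gabrd higher), against 29.0% of all genes.

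The same count against microglia-like nuclei shows which members stood above the background of neuronal RNA. In dentate granule-like nuclei 4 of 6 members with enough UMIs did (Gabra2, Gabra4, Gabra5 and Gabrd), with 20.7% of all genes apart in either direction. In CA1-like nuclei Gabra2 and Gabra5 were higher (2 of 7, 22.9% of all genes), and in subicular-like nuclei Gabra3 and Gabrg3 (2 of 7, 20.8%). In CA2 or CA3-like nuclei Gabra5 was higher while Gabra3 and Gabrd were lower (3 of 7, 27.6%). Deep-layer cortical-like nuclei had Gabra3 and Gabra5 higher and Gabra2 lower (3 of 7, 19.5%), and inhibitory-like nuclei had Gabra3 and Gabrg3 higher and Gabrb1 lower (3 of 7, 26.1%). In upper-layer cortical-like nuclei all 7 members overlapped with the microglia-like nuclei, whereas 18.5% of all genes did not.

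**Figure D1:**
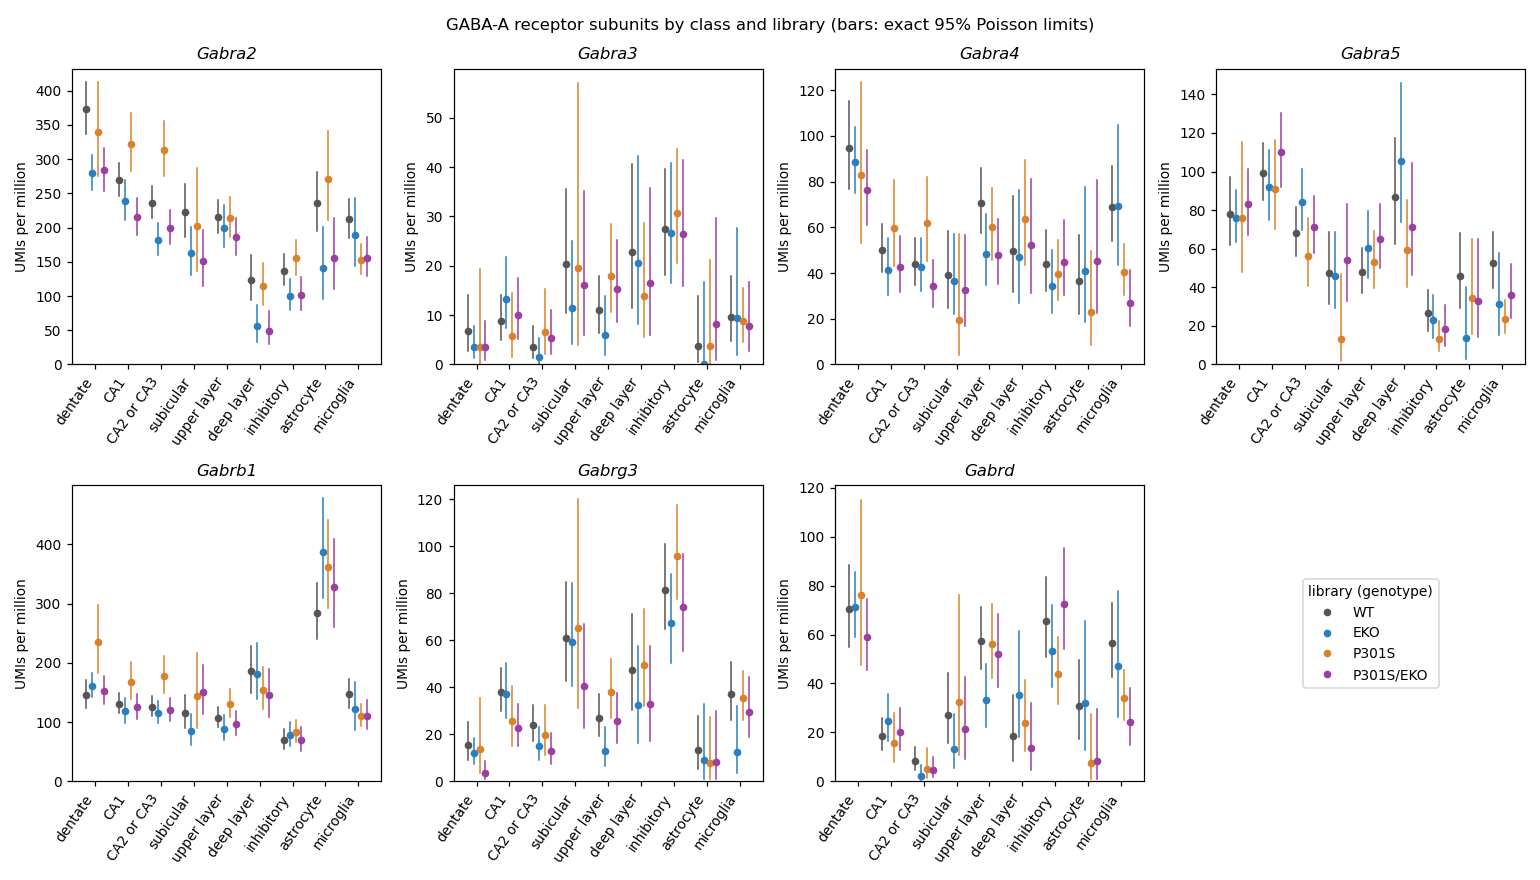
Level of each subunit (vertical axis, CPM) in the 7 neuron classes, astrocyte-like and microglia-like nuclei (horizontal axis), with 1 point per library and exact 95% Poisson limits as bars. Gabra4 is highest in the dentate class, Gabrg3 and Gabra3 in the inhibitory class, and Gabrb1 in astrocyte-like nuclei, at 285 to 387 CPM.

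Within the inhibitory-like nuclei the members divided by interneuron group. Sub-clusters were named Pvalb-like (572 nuclei), Sst-like (475) and Vip or Cnr1-like (486), and 2 further sub-clusters took no name. Pvalb marks fast-spiking basket and chandelier cells, Sst marks cells that target dendrites, and Vip and Cnr1 mark disinhibitory and cholecystokinin-type cells. Of the Vip or Cnr1-like nuclei, 143 formed a sub-cluster led by Ndnf, a marker of neurogliaform interneurons. It took the name on 4 of 7 markers. Gabrd stood at 177, 108, 103 and 181 CPM in Pvalb-like nuclei. It was at 4.65, 25.3, 7.96 and 15.1 in Sst-like and 4.36, 9.74, 18.2 and 0 in Vip or Cnr1-like nuclei. In the library with the count of 0, a count of 3 UMIs would be 14.4 CPM. The Pvalb-like level rested on 50, 32, 33 and 43 UMIs, and the other groups held 11 and 8 UMIs in all 4 libraries together. After each nucleus was thinned to 1000 UMIs, a Gabrd UMI was found in 20.3%, 14.8%, 11.5% and 15.4% of Pvalb-like nuclei (unthinned 28.9%, 18.3%, 22.9% and 24.6%) and in 6.51%, 2.61%, 2.24% and 2.21% of microglia-like nuclei (unthinned 21.8%, 10.1%, 11.5% and 5.37%). Thinning left out 2.0, 15.0, 0.0 and 25.0 shallower Pvalb-like nuclei and 1.0, 23.0, 0.0 and 63.0 microglia-like nuclei. Before any were left out, the median depths of all Pvalb-like nuclei were 1854, 1575, 2085 and 1466 UMIs. Those of all microglia-like nuclei were 3985, 1887, 3262 and 1801 UMIs. In Pvalb-like nuclei Gabrd also lay above the dentate granule-like nuclei (58.8 to 76.1 CPM) in every library. Against dentate granule-like nuclei 6 of 6 members were apart (Gabrg3 and Gabrd higher, Gabra2, Gabra4, Gabra5 and Gabrb1 lower; 29.0% of all genes), and against microglia-like nuclei 5 of 7 (Gabra3, Gabrg3 and Gabrd higher, Gabra2 and Gabrb1 lower; 26.3%).

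Gabrg3 followed the same pattern at 149, 125, 197 and 156 CPM in Pvalb-like nuclei, against 20.1 to 69.8 in Sst-like and 39.0 to 54.7 in Vip or Cnr1-like nuclei. Gabra4 was at 60.3, 40.5, 65.8 and 75.8 CPM in Pvalb-like nuclei, above 18.6 to 35.5 and 21.8 to 29.2 CPM in the other groups, but overlapping with the microglia-like nuclei. Gabra2 went the other way, with 53.2, 50.6, 47.0 and 63.1 CPM in Pvalb-like, 116, 106, 191 and 116 in Sst-like and 205, 156, 211 and 129.7 in Vip or Cnr1-like nuclei. In Pvalb-like against Sst-like nuclei 4 of 6 members with enough UMIs did not overlap, and 11.4% of all genes did the same; against Vip or Cnr1-like nuclei it was 4 of 6 and 15.7%. Between Sst-like and Vip or Cnr1-like nuclei all 4 members with enough UMIs overlapped (10.4% of all genes did not).

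A cluster of 400 nuclei with Pnoc, Ndnf and Lamp5 among its top 10 genes held all 8 inhibitory markers. It took no class name, because Ndnf and Reln also belong to the Cajal-Retzius markers. Gabrg3 there stood at 206, 159.6, 227 and 196 CPM, above the inhibitory-like nuclei in every library, and Gabrd at 49.7, 123, 138 and 147 CPM. Against the inhibitory-like nuclei 3 of 7 members were apart, Gabra4, Gabra5 and Gabrg3, all higher in this cluster, with 10.2% of all genes. Gabra5 was at 71.0, 79.8, 49.0 and 70.1 CPM, above the Pvalb-like nuclei (6.75 to 24.8 CPM) in every library. Against Pvalb-like nuclei 2 of 6 members did not overlap, Gabra2 and Gabra5, both higher in this cluster, with 14.9% of all genes. Another unnamed cluster, of 412 nuclei with Nxph3 and Cbln2 among its top 10 genes, held 59.5, 129.6, 131 and 92.7 CPM of Gabrg3.

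**Figure D2:**
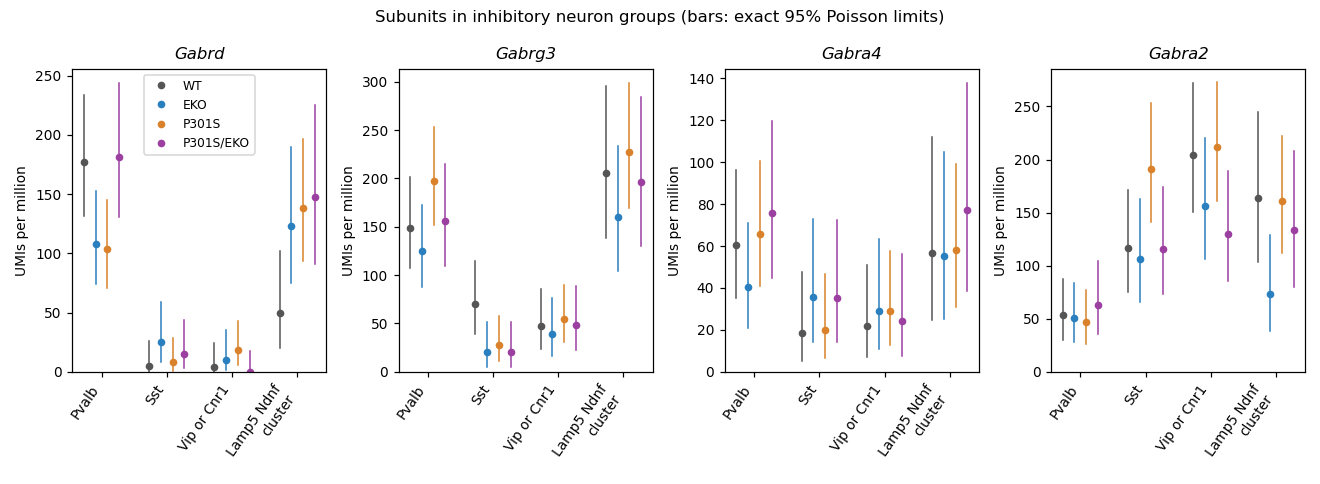
Levels of Gabrd, Gabrg3, Gabra4 and Gabra2 (vertical axis, CPM) in 3 named interneuron groups and the unnamed cluster with Lamp5 and Ndnf among its top genes (horizontal axis), 1 point per library with exact 95% Poisson limits. Gabrd is at 103 CPM or more in Pvalb-like nuclei and at 25.3 or less in Sst-like and Vip or Cnr1-like nuclei.

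Among glia, Gabrb1 stood out in astrocyte-like nuclei at 285, 387, 362 and 329 CPM. Every library lay above every library of the dentate granule-like nuclei (146 to 235 CPM) and of the microglia-like nuclei (111 to 147 CPM). Against dentate granule-like nuclei 5 of 6 members were apart (Gabrb1 higher, Gabra2, Gabra4, Gabra5 and Gabrd lower), as were 36.4% of all genes. Gabrb1 was the only one of 6 members with enough UMIs that was apart between astrocyte-like and microglia-like nuclei, and 31.5% of all genes were apart. Relative to the level over all neurons of the same library, Gabrb1 in astrocyte-like nuclei was at 233% to 319.8%, whereas Snap25 was at 38.8% to 72.5%, Syt1 at 17.2% to 45.6%, Nrgn at 53.3% to 111%, Camk2a at 41.4% to 78.1% and Slc17a7 at 24.3% to 65.2%. After thinning, a Gabrb1 UMI was found in 27.1%, 31.3%, 31.9% and 29.9% of astrocyte-like nuclei (unthinned 40.0%, 30.3%, 55.5% and 29.9%) and 13.5%, 8.70%, 9.62% and 12.5% of microglia-like nuclei (unthinned 39.8%, 21.0%, 32.4% and 18.2%). Thinning left out 23.0, 134.0, 0.0 and 104.0 astrocyte-like nuclei. The median depths of all astrocyte-like nuclei, before any were left out, were 1488, 824, 1676 and 986 UMIs. The other 6 members in astrocyte-like nuclei reached at most 116% of the neuron level, for Gabra2. In microglia-like and oligodendrocyte-like nuclei, where those neuronal transcripts stood at 58.0% to 110.1% and 69.1% to 137% of the neuron level, member levels are not read as expression.

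Loss of Apoe was compared in 2 pairs of libraries with none in common, EKO over WT and P301S/EKO over P301S. Gabra2 was lower without Apoe in all 7 neuron classes in both pairs. Of 1450 genes with at least 50 UMIs in every class and pair, 3.72% were lower in all 14 values. Of 29 member and class pairs with enough UMIs in both, 1 was called the same way in both, against 1.87% of all gene and class pairs. This was Gabra2 in deep-layer cortical-like nuclei, with 124, 55.7, 115 and 49.3 CPM from 60, 19, 58 and 18 UMIs. This was 2.23-fold lower (1.31 to 3.95) in EKO than in WT and 2.33-fold lower (1.36 to 4.21) in P301S/EKO than in P301S. Both libraries without Apoe were low and both with it high, with no overlap, and 1.71% of all genes were called the same way in both pairs in that class. These levels lie below those in microglia-like nuclei, as given above, and the dentate granule markers in the same deep-layer nuclei summed to 84.7, 88.0, 39.7 and 95.9 CPM, lowest in the P301S library.

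In the other neuron classes the Gabra2 differences were smaller. Besides the levels given above, Gabra2 was at 222, 163, 202 and 151 CPM in subicular-like, 186 to 215 in upper-layer cortical-like and 137, 100.5, 155 and 102 in inhibitory-like nuclei. Within each of these classes EKO was below WT and P301S/EKO below P301S. The log2 ratios of EKO over WT were −0.41 (−0.61 to −0.22) in dentate granule-like, −0.17 (−0.39 to 0.04) in CA1-like and −0.37 (−0.61 to −0.14) in CA2 or CA3-like nuclei. They were −0.45 (−0.86 to −0.04) in subicular-like, −0.10 (−0.38 to 0.17) in upper-layer cortical-like and −0.45 (−0.87 to −0.04) in inhibitory-like nuclei. In P301S/EKO over P301S the ratios in the same order were −0.26 (−0.59 to 0.08), −0.59 (−0.85 to −0.32), −0.65 (−0.91 to −0.39), −0.41 (−1.08 to 0.26), −0.20 (−0.50 to 0.09) and −0.60 (−1.03 to −0.19). The limits lay wholly below 0 in 5 of 7 classes in the first pair and in 4 of 7 in the second, deep-layer nuclei included. In all 7 classes of both pairs Gabra2 also lay below the median of all genes in that class. The make-up of several kinds of neuron-like nuclei differed between libraries. The finer clustering (resolution 2) was made anew over all nuclei, so its clusters are not exact parts of the 7 classes. In it 3 clusters took the dentate granule name. The one led by Maml2 and Notch2 held 64, 176, 3 and 94 nuclei, the one led by Slc26a10 held 226, 175, 137 and 578, and the one led by C1ql2 and Plk5 held 369, 1004, 20 and 333. The CA1 name went to 2 clusters, with 755, 622, 118 and 530 nuclei in one and 69, 12, 167 and 142 in the other. The upper-layer cortical name went to 2 clusters, with 416, 257, 239 and 261 nuclei in one and 282, 226, 77 and 319 in the other. These held 1173 and 904 nuclei in all, against 2366 in the upper-layer class. A further cluster of 206 nuclei, led by Zic4 and Zic1, held 52, 18, 73 and 63 nuclei. It took the Cajal-Retzius name on 3 of 6 markers, a name that no cluster took at resolution 1. Within the inhibitory-like nuclei, the unnamed sub-clusters held 60, 34, 11 and 16 nuclei and 53, 15, 30 and 13 nuclei. The Gabra2 log2 ratios were −0.07 and 0.41 in Pvalb-like and −0.12 and −0.71 in Sst-like nuclei, where not both pairs had enough UMIs. They were −0.39 and −0.70 in Vip or Cnr1-like nuclei. The part of these shares in the differences between genotypes within these classes was not tested.

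Pooled over the 7 classes, with each class compared within itself, the log2 ratio of Gabra2 was −0.33 (−0.43 to −0.22) in EKO over WT and −0.49 (−0.62 to −0.37) in P301S/EKO over P301S. These are 1.25-fold and 1.41-fold lower levels. The median of all genes in the same measure was 0.00 and −0.15, and 5.43% of all genes were lower in both with limits excluding no change. Under median-of-ratios scaling, which removes that shift, the values were −0.35 and −0.34. Depth moved with Apoe, and the 2 cannot be told apart by design. With nuclei of at least 1000 UMIs alone the values were −0.35 and −0.50, and with every nucleus thinned to 1000 UMIs they were −0.37 and −0.39. After thinning, Gabra2 in upper-layer cortical-like nuclei was no longer lower in the second pair (0.21).

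Gabra2 was also called lower without Apoe in both pairs in astrocyte-like nuclei, at 235, 141, 270.2 and 156 CPM, 1.67-fold lower (1.12 to 2.56) and 1.73-fold lower (1.15 to 2.64), with 4.07% of all genes called the same way in both. Neuronal transcripts in those nuclei summed to 1545, 942, 803 and 839 CPM, lower in EKO than in WT, as Gabra2 was, but not lower in P301S/EKO than in P301S. Their part in the result was not tested. In microglia-like nuclei the log2 ratios of Gabra2 were −0.17 (−0.60 to 0.25) and 0.03 (−0.31 to 0.36).

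**Figure D3:**
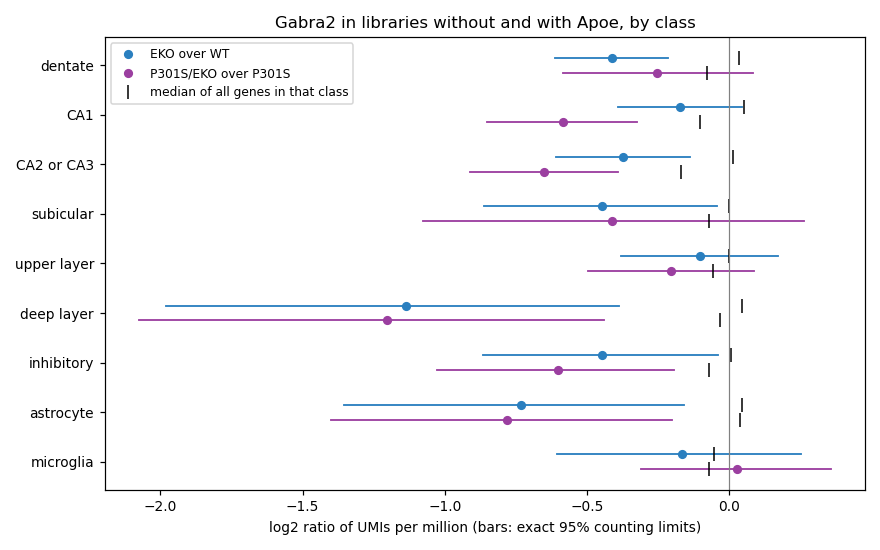
Log2 ratio of Gabra2 between libraries without and with Apoe (horizontal axis) in each class (vertical axis), with exact 95% counting limits as bars and a tick at the median of all genes in that class. All 14 neuron values lie below 0, the lowest in deep-layer cortical-like nuclei at −1.14 and −1.20.

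Gabrg3 and Gabra4 were lower along with Gabra2 in the pooled measure. Gabrg3 was at −0.33 (−0.59 to −0.07) in EKO over WT and −0.48 (−0.79 to −0.17) in P301S/EKO over P301S, and its ratio was below 0 in all 7 classes of both pairs, though only 5 and 2 classes had 50 UMIs. Gabra4 was at −0.21 (−0.42 to −0.01) and −0.32 (−0.57 to −0.07), lower in both pairs in 5 of 7 classes. The median of all genes in the second pair was −0.15, which lay within the limits of Gabra4 there and just outside those of Gabrg3. In that pair Gabra4 was thus not set apart from the median of all genes. Gabrb1 was at −0.08 (−0.22 to 0.06) and −0.41 (−0.57 to −0.25), so that a limit excluded no change in the second pair alone. Gabra5 stood apart from these, at 0.08 (−0.10 to 0.27) and 0.32 (0.08 to 0.55), and was higher in all 7 classes in the second pair but in 3 of 7 in the first. Gabrd (−0.21 and 0.07) and Gabra3 (−0.24 and −0.07) had limits that included no change. No member reached 1.5-fold in the pooled measure, where 6.97% and 13.7% of all genes did.

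By single class, 4 of 34 member and class pairs with enough UMIs were called in EKO over WT, all lower, and 11.1% of all gene and class pairs were called. Besides Gabra2 these were Gabrg3 in CA2 or CA3-like nuclei (−0.66, limits −1.53 to 0.13 on the log2 scale), Gabrg3 in upper-layer cortical-like nuclei (−1.03, limits −2.17 to −0.06) and Gabrd in upper-layer cortical-like nuclei. Gabrg3 stood at 23.8, 14.9, 19.7 and 12.9 CPM in the former class and 27.0, 13.0, 38.0 and 25.5 in the latter, where EKO was lowest. Gabrd in the last class was at 57.5, 33.1, 55.9 and 52.0 CPM and 1.74-fold lower (1.12 to 2.77) in EKO, the 1 library that lay apart. In P301S/EKO over P301S 7 of 30 pairs were called, 6 lower and 1 higher, against 16.3% of all pairs. Under median-of-ratios scaling 3 were called, 2 lower and 1 higher. The lower ones were Gabra2 in CA1-like, CA2 or CA3-like, deep-layer cortical-like and inhibitory-like nuclei, Gabra4 in CA2 or CA3-like nuclei (−0.84, limits −1.48 to −0.23), and Gabrb1 in dentate granule-like nuclei (−0.62, limits −1.03 to −0.19). Gabra4 in CA2 or CA3-like nuclei stood at 44.1, 42.6, 61.7 and 34.2 CPM, with P301S highest. Lost under that scaling were Gabra2 in CA1-like (−0.42), CA2 or CA3-like (−0.43) and inhibitory-like nuclei (−0.54), and Gabrb1 in dentate granule-like nuclei (−0.43). The higher one was Gabrd in inhibitory-like nuclei, 1.65-fold higher (1.08 to 2.54), a difference that was not kept at a finer clustering (−0.035 on the log2 scale), where the Pvalb-rich cluster took no name.

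The tau transgene was compared in P301S over WT and P301S/EKO over EKO, which also share no library with each other; each shares libraries with the comparisons of Apoe loss. Of 28 member and class pairs with enough UMIs in both, 0 were called the same way in both, against 1.28% of all gene and class pairs. In P301S over WT 1 of 33 pairs was called against 15.3% of all gene and class pairs. This was Gabrb1 in dentate granule-like nuclei, at 146, 162, 235 and 153 CPM, where the P301S library alone was high. It stood 1.61-fold above WT (1.19 to 2.15). That library held 155 dentate granule-like nuclei against 650, 1346 and 988 in WT, EKO and P301S/EKO, and the dentate granule markers in them summed to 1086, 1424, 526 and 1273 CPM. Of the clusters with the dentate granule name at resolution 2, the one led by Slc26a10 held 137 P301S nuclei and the others 3 and 20. This was unlike WT (226, 64 and 369), and the part of this difference was not tested. In P301S/EKO over EKO the Gabrb1 log2 ratio in this class was −0.08 (−0.36 to 0.20).

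In P301S/EKO over EKO 3 of 29 pairs were called against 9.70% of all pairs. Gabrb1 in subicular-like nuclei was 1.79-fold higher (1.19 to 2.72), with 115, 84.3, 143 and 151 CPM over the 4 libraries. Gabrg3 in CA1-like nuclei was lower, at 38.1, 37.1, 25.6 and 22.7 CPM and a log2 ratio of −0.70 (−1.46 to 0.02); in P301S over WT it was −0.57 (−1.41 to 0.19). Both libraries with the transgene were thus low for Gabrg3 in CA1-like nuclei, while neither limit excluded no change. The smaller CA1-like cluster at resolution 2 held 167 and 142 nuclei in those libraries against 69 in WT and 12 in EKO. Its part was not tested. Gabrd in upper-layer cortical-like nuclei was higher, at 0.64 (−0.04 to 1.37), and was −0.04 (−0.56 to 0.47) in P301S over WT.

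Pooled over classes, Gabrb1 was at 0.33 (0.18 to 0.47) in P301S over WT and 0.03 (−0.11 to 0.18) in P301S/EKO over EKO. The median of all genes in P301S over WT was 0.15, and under median-of-ratios scaling Gabrb1 was at 0.17. Gabra5 was at −0.23 (−0.45 to 0.00) and 0.02 (−0.17 to 0.20). The other 5 members lay between −0.17 and 0.15 in the first comparison and between −0.20 and 0.23 in the second. None reached 1.5-fold, where 12.2% and 5.61% of all genes did.

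Gabrd in Pvalb-like nuclei, at 177, 108, 103 and 181 CPM, lay on opposite sides in the comparisons of the transgene. Against WT the P301S library was 1.71-fold lower (1.08 to 2.75), and against EKO the P301S/EKO library was 1.68-fold higher (1.04 to 2.74), in nuclei where 12.9% and 11.4% of genes were called. WT and P301S/EKO were high, EKO and P301S low, with 135, 164, 131 and 142 nuclei. The comparisons of Apoe loss from the same libraries were −0.71 (−1.40 to −0.05) and 0.80 (0.12 to 1.51) on the log2 scale, with 13.0% and 15.0% of genes called. The difference between the 2 effects was not tested, for want of a second library.

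**Figure D4:**
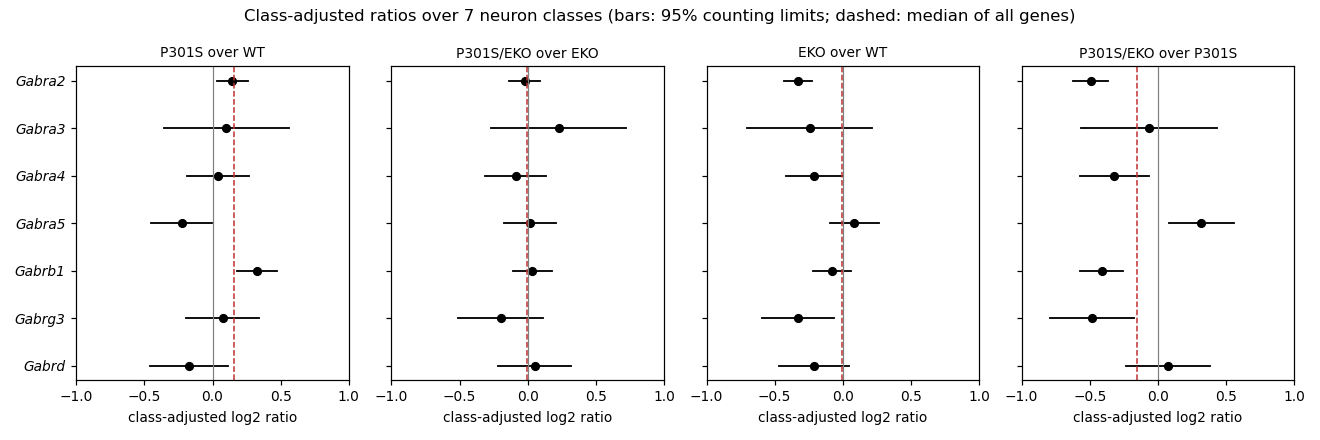
Class-adjusted log2 ratios (horizontal axes) of the 7 members (vertical axis) in the 4 comparisons, with 95% counting limits as bars and a dashed line at the median of all genes. Gabra2 lies at −0.33 and −0.49 in the panels of Apoe loss, whereas Gabra5 lies at 0.08 and 0.32.

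Of the 12 other subunit genes 5 had enough UMIs and none reached 1.5-fold in any comparison. Among them Gabrb2, a beta subunit, was at −0.46 (−0.78 to −0.13) in P301S/EKO over EKO and −0.42 (−0.80 to −0.04) in P301S/EKO over P301S, which share the P301S/EKO library. Gabrg1, a gamma subunit, lay between −0.18 and 0.29 in the 4 comparisons, with limits that included no change in each. The 5 genes together ranged from −0.42 to 0.49 in P301S/EKO over P301S and from −0.18 to 0.38 in EKO over WT. In the order P301S over WT, P301S/EKO over EKO, EKO over WT and P301S/EKO over P301S, the medians of the 5 genes were −0.11, −0.08, 0.03 and 0.09, and those of the 7 members 0.07, 0.02, −0.21 and −0.32.

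Genes that act with the receptor were counted in the same pooled measure. Of 16 inhibitory postsynaptic genes, 1 was called in P301S over WT and 2 in P301S/EKO over P301S, and none in the other comparisons. Of all genes 12.2% and 13.7% were called in these 2 comparisons, where the medians of all genes were 0.15 and −0.15. In P301S/EKO over EKO and EKO over WT 5.61% and 6.97% of all genes were called. Iqsec3, an exchange factor of inhibitory synapses, was higher in P301S over WT (0.59, limits 0.41 to 0.76). It was lower in P301S/EKO over P301S (−0.75, limits −0.95 to −0.56), and both comparisons rest on the P301S library. Plcl1, a partner of GABA-A receptors in their phosphorylation and traffic, was the other, at −0.71 (−1.38 to −0.04). Trak2 (0.51 and −0.51) and Shisa7 (0.44 and −0.29), a GABA-A auxiliary protein, had the same signs without being called.

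Of 7 genes of GABA synthesis and transport, Gad2, a GABA-synthesising enzyme, was called lower in P301S/EKO over P301S (−0.68, limits −0.98 to −0.39). Slc6a11, an astrocytic GABA transporter, was called higher in P301S/EKO over EKO (0.83, limits 0.20 to 1.45), as counted in the neuron classes. Astrocyte markers there summed to 140 to 525 CPM in EKO and 229 to 589 CPM in P301S/EKO, higher in P301S/EKO in each class. Their part in the Slc6a11 result was not tested. Of 7 GABA-B receptor genes with enough UMIs, Kcnj9, a potassium channel subunit opened through that receptor, was called lower in EKO over WT (−0.67, limits −0.82 to −0.52), and Gabbr2, a receptor subunit, in P301S/EKO over P301S (−0.59, limits −0.80 to −0.38). In this measure 13.7% of all genes were called in P301S/EKO over P301S, 5.61% in P301S/EKO over EKO and 6.97% in EKO over WT. None of 4 chloride transport genes was called. Slc12a5, the extruder that keeps neuronal chloride low, was at −0.22 (−0.32 to −0.11) and −0.27 (−0.39 to −0.14) with Apoe loss. The median of all genes in P301S/EKO over P301S was −0.15, within the Slc12a5 limits there. The lowest ratio among the 4 genes was −0.40 in EKO over WT and −0.43 in P301S/EKO over P301S.

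In oligodendrocyte-like nuclei, where member levels are not read as expression, Gabra2 was called in both comparisons of the transgene. It stood at 266, 281, 176 and 139 CPM, 1.51-fold lower (1.11 to 2.08) in P301S than in WT and 2.02-fold lower (1.43 to 2.86) in P301S/EKO than in EKO, with 3.48% of genes called the same way in both. Dentate granule markers in the same nuclei summed to 389.8, 751, 119 and 445 CPM and neuronal transcripts to 2195, 2274, 1836 and 1948 CPM, both lower with the transgene in each pair. Their part in the result was not tested.

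Finally, each member was compared with 9609 genes of at least 200 UMIs across 28 points, the 7 neuron classes in each of 4 libraries, by Pearson's r of log2(CPM + 1). The points share libraries and depth, and the values describe these nuclei only. Most like Gabra2 were Itga8 (r = 0.87), Epha4 (r = 0.85) and Slit3 (r = 0.83). Most like Gabra4 were Cstf3 (r = 0.85), Vgll4 (r = 0.82) and Ap3b1 (r = 0.82), and most like Gabrd Zmat4 (r = 0.87), Sepn1 (r = 0.85) and Ptchd4 (r = 0.85). Gabra5 was nearest to Rasgef1a (r = 0.87), Cacna2d1 (r = 0.87) and Nab2 (r = 0.86), and Gabrb1 to Mmp17 (r = 0.90), Celf2 (r = 0.85) and Syt7 (r = 0.83). Gabrg3 had another member of the set, Gabra3, among its nearest genes: Tle2 (r = 0.86), Slc2a8 (r = 0.85) and Gabra3 (r = 0.84). Gabra3 itself, with the fewest UMIs, was nearest to Hcn3 (r = 0.89), Clstn3 (r = 0.88) and Serpini1 (r = 0.88).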

How the data were processed

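The deposited files hold UMI counts per gene and barcode, whole numbers made by the authors with Cell Ranger on mm10 (Seurat is also named), per the submitters' processing notes. Neither tool versions nor the handling of intronic reads could be read from the labels. Barcodes needed 200 detected genes and no more than 5% of UMIs from mitochondrial genes. Scrublet's own threshold called 0 or 1 doublet per library, so the top scores were removed at 0.8% per 1000 barcodes, leaving 5234, 5199, 2860 and 5274 nuclei.

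Nuclei were clustered with scanpy 1.11.5 (2000 variable genes, 30 components, 15 neighbours, Leiden resolution 1) without the 19 GABA-A subunit genes, which gave 19 clusters. A cluster took 1 of 18 marker names when at least 3 markers stood 1.5-fold above the other nuclei and markers of no other name were more frequent among its top 10 genes; 4 stayed unnamed. Counts were summed per class and library and scaled to 1e+06 (CPM) with exact Poisson limits. Log2 ratios carry a prior of 0.5 UMI and exact conditional binomial limits, and the pooled measure is the Mantel-Haenszel ratio over the 7 neuron classes. The ratio script was tested on simulated data. Means over 4 libraries average different genotypes.

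Members and lists were chosen with earlier results of these data known. All 7 members are named in every class. In the genotype comparisons full values go first to pairs called alike in the 2 comparisons of a factor, then to pairs called once; up to 4 genes of each other list and the 3 genes most like each member are named. Some genes of the other lists are not reported here. Alternatives were median-of-ratios scaling, at least 500 genes, at least 1000 UMIs, doublets kept, resolution 2, equal weight per nucleus, subunit genes kept in the clustering and no UMI minimum. The pooled measure and thinning to 1000 UMIs were added after the data had been seen. Gene positions are from GENCODE vM21. Other software was scipy 1.17.1, numpy 2.4.6, igraph 0.11.9, pandas 2.3.3 and scikit-learn 1.9.0 under Python 3.11.15.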

Additional observations from a re-analysis of the deposited data

How the results depend on the processing

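Under the alternatives 22 counts of called pairs stayed within 1.5 times the reported count and 14 did not. In P301S over WT the count of 1 became 3 with median-of-ratios scaling, 2 with at least 1000 UMIs per nucleus, 4 with putative doublets kept, 3 at Leiden resolution 2, 5 with equal weight per nucleus, 9 with no minimum above 1 UMI and 11 with nuclei thinned to 1000 UMIs. In P301S/EKO over EKO the count of 3 became 10 with no minimum and 5 after thinning. In EKO over WT the count of 4 became 2 with doublets kept, 2 at resolution 2 and 12 with no minimum. In P301S/EKO over P301S the count of 7 became 3 with median-of-ratios scaling and 14 with no minimum. With doublets kept the deep-layer cortical-like cluster took no name, so fewer pairs were counted. Of the mean levels in CPM under the alternatives, 418 were counted as the same and 16 as moved. Among the log2 ratios, 1344 stayed within their counting limits and 14 moved beyond them, among them Gabra2 in upper-layer cortical-like nuclei, which changed sign after thinning without having been called (−0.20 to 0.21 in P301S/EKO over P301S). In 1 case a called value changed sign. Gabrd in inhibitory-like nuclei, P301S/EKO over P301S, was −0.035 at resolution 2, where the Pvalb-rich cluster took no name. Gabra2 stayed below 0 in every neuron class in both comparisons of Apoe loss under every alternative in which the class was named, except for the value just given. Few UMIs limit Gabra3, which had 50 UMIs over both libraries in 1 class of 1 comparison. No paired analysis was possible because each genotype is 1 library, so leaving out a replicate was not possible either.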

Other observations

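The unnamed cluster led by Dcn and Nnat held 154, 176, 198 and 156 CPM of Gabrb1 and 20.6, 20.3, 32.9 and 17.7 CPM of Gabra3 in WT, EKO, P301S and P301S/EKO. Its Gabra2 log2 ratio was −0.35 (−0.64 to −0.07) in EKO over WT and −0.42 (−0.75 to −0.08) in P301S/EKO over P301S, on the same side of 0 as in the 7 named neuron classes. In the cluster with Nxph3 and Cbln2 among its top genes, Gabra2 stood at 92.0, 70.2, 99.8 and 49.9 CPM.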
